A study of Mus musculus with 24 samples.

Results

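The 12 Alport mouse kidneys with the most interstitial collagen RNA (high-collagen kidneys) were compared with the 12 with the least (low-collagen kidneys), of 24 in all. Within each batch of 12 libraries, kidneys were ranked by a collagen index, the mean of log2(TPM + 1) of Col1a1, Col1a2 and Col3a1, and the upper 6 were set against the lower 6. TPM is a level scaled by gene length and by library. The groups were chosen by the measured TPM of these 3 genes, so the values of these 3 genes are description only, and each p below says how another gene goes with the ranking across these libraries, not what a treatment does.

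All 24 mice were males on the B6 background with X-linked Alport syndrome (XLAS), from a cross whose labels name Nbl1 and Col4a5, and the kidneys were taken at 15 weeks of age. Mice were heterozygous (HET) or wild type (WT) for Nbl1, whose product binds bone morphogenetic proteins (BMPs) outside the cell and blocks them. The study asked what partial loss of Nbl1 does to the diseased kidney. The high-collagen kidneys were labelled HET in 7 and WT in 5 cases, and the low-collagen kidneys HET in 6 and WT in 6. A two-sided Fisher's exact test of genotype label against collagen group, pooled over the batches, gave p = 1. In batch 1 the high-collagen kidneys were 4 HET and 2 WT, and the low-collagen kidneys 2 HET and 4 WT. In batch 2 the high-collagen kidneys were 3 HET and 3 WT, and the low-collagen kidneys 4 HET and 2 WT. The batches leaned opposite ways, so the pooled test does not show balance within a batch. Both groups carry the disease, and the labels do not name the Col4a5 or Nbl1 allele.

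Alport syndrome is a hereditary disease in which the type IV collagen network of the glomerular basement membrane is defective, and in its later course the space between the tubules scars. Scar matrix is built mainly of the fibrillar collagens I and III, made by fibroblasts and myofibroblasts, and it is crosslinked and trimmed by enzymes made in the same tissue. Macrophages usually gather where the interstitium scars, and tubule cells there lose parts of their transport and metabolic program. In bulk RNA, fewer cells of a type and less RNA per cell cannot be told apart, which holds for every result here.

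The collagen index ran from 4.58 to 5.11 in the high-collagen kidneys and from 4.13 to 4.56 in the low-collagen kidneys of batch 1, and from 5.74 to 6.11 in high-collagen and 5.02 to 5.74 in low-collagen kidneys of batch 2. The last kidney inside the upper 6 of batch 1, WT replicate 3, had an index of 4.576, and the first outside it, WT replicate 5, had 4.563. In batch 2 the last inside, HET replicate 7, had 5.740, and the first outside, HET replicate 8, had 5.736. The kidneys on either side of the division differ by 0.0130 and 0.00425, so the groups are the upper and lower parts of a continuous range. Col1a1, a chain of collagen I, was at 141, 171 and 205 CPM (lowest, median and highest of 6 kidneys) in the high-collagen kidneys and 116, 128 and 156 CPM in the low-collagen kidneys of batch 1. In batch 2 it was at 154, 177 and 204 CPM in high-collagen and 113, 128 and 154 CPM in low-collagen kidneys. CPM is a count scaled to library size, here by the TMM method. The log2 difference between the groups was 0.42 for Col1a1, 0.30 for Col1a2, the other chain of collagen I, and 0.38 for Col3a1, the chain of collagen III.

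**Figure D1:**
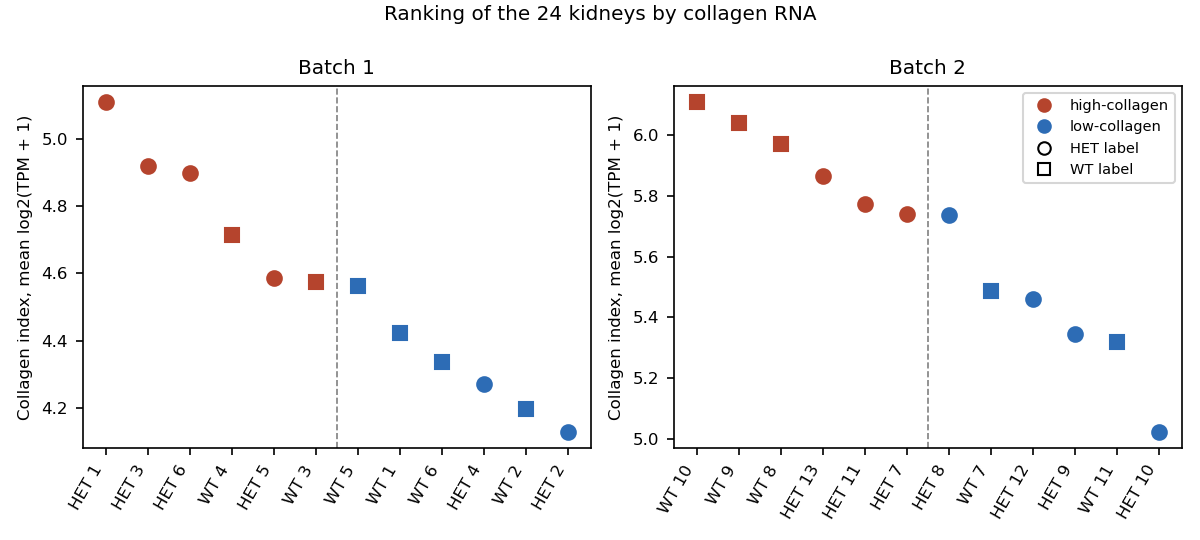
Collagen index of each kidney, the mean log2(TPM + 1) of 3 collagen genes, in rank order within batch 1 (left) and batch 2 (right). Red marks high-collagen and blue low-collagen kidneys, circles HET and squares WT labels, and the dashed line is the division of each batch into 6 and 6; the kidneys beside the line differ by 0.0130 and 0.00425.

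Libraries held 29551404 to 33019918 counts in batch 1 and 36380404 to 50746710 in batch 2, and total counts differed between the groups by 554389 (p = 0.676, two-sided permutation test within batch, adjusted p = 0.676 over 4 library measures). High-collagen libraries had a lower share of counts in the 100 most abundant genes, a difference of -2.88 percentage points (adjusted p = 0.00680), and in mitochondrially encoded genes, a difference of -0.772 points (adjusted p = 0.0309). An rRNA gene, CT010467.1, took 7.98% of counts in high-collagen and 12.1% in low-collagen libraries of batch 2 on average, with the most in HET replicate 10 (18.04%) and HET replicate 12 (16.6%), both low-collagen. These 2 libraries also had the highest shares in the top 100 genes (46.1% and 44.3%) and the lowest TMM factors (0.818 and 0.825). Over both batches the rRNA share differed by -2.09 points (unadjusted p = 0.114, two-sided permutation test within batch, examined after seeing the data). TPM is scaled to the library total, which includes these abundant RNAs, so the shares are not independent of the ranking. Their p are therefore description only, and the part of these shares in the results was not tested. Without the 3 libraries named next, the differences in the top 100 and mitochondrial shares were -2.70 and -0.686 points, with adjusted p = 0.0193 and 0.0410 by the same permutation test. The libraries labelled HET replicate 6 (high), WT replicate 1 (low) and WT replicate 2 (low) of batch 1 went against their genotype labels in Nbl1 and its neighbour Htr6, and they are called the doubted libraries. HET replicate 6 had 9.21 CPM of Nbl1, against 3.85 to 4.88 CPM in the other HET libraries of batch 1. WT replicate 1 and WT replicate 2 had 26 and 14 Htr6 counts, against at most 1 in the other WT libraries of batch 1. The labels of HET replicate 8 hold conflicting animal numbers, and it was matched to its values by library name. Scaling bears on the ranking too: small RNAs of the signal recognition particle and 7SK families took 46.7% to 51.5% of TPM in batch 1 libraries. Ranking by TMM-scaled CPM instead of TPM moved WT replicate 1 into the upper 6 of batch 1 and WT replicate 3 out of it, and changed no group in batch 2. Kidney identity held in all libraries: the proximal tubule genes Kap and Slc34a1 had at least 378663 and 101468 counts, and Umod of the thick ascending limb at least 73879.

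Between high-collagen and low-collagen kidneys, 82 of 19232 other genes (0.426%) had an adjusted p under 0.05 in edgeR's quasi-likelihood fit, with batch and genotype label as covariates. Of these, 67 were higher (0.348%) and 15 lower (0.078%) in high-collagen kidneys. Differences were small: the higher genes ran from 1.09-fold to 3.37-fold with a median log2 fold change of 0.37, and the lower genes stood at 0.599 to 0.922 of the low-collagen level. All 67 higher genes and 13 of the 15 lower genes were protein coding. An unadjusted p under 0.05 was reached by 2492 genes, and the median log2 fold change of all tested genes was -0.015.

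How many genes passed depended on single kidneys. Leaving out one library at a time gave 5 genes without HET replicate 9, HET replicate 10 or WT replicate 11, 7 without HET replicate 2, and 8 without WT replicate 4, WT replicate 9 or WT replicate 10. It gave 11 without HET replicate 4, 12 without HET replicate 13, 14 without HET replicate 1, 28 without HET replicate 12, 38 without WT replicate 7, 48 without WT replicate 6 and 51 without HET replicate 3. More genes passed without WT replicate 3 or WT replicate 5 (151 each), HET replicate 5 (156) and HET replicate 8 (499), the kidney just under the dividing line of batch 2. Csf2rb, C4b, Cyth4, Actn1 and S100g were called in all 24 of these fits. Without the 3 doubted libraries 38 genes were called, 33 of them among the 82. With the ranking by CPM, 120 genes were called, 35 of them among the 82. Csf2rb, C4b and Cyth4 were among those 35. Actn1 (adjusted p = 0.0531) and S100g (adjusted p = 0.109) were not, by edgeR. With other scaling in the same edgeR fit, the calls were 2153 higher and 5 lower with library totals alone and 66 higher and 18 lower with RLE factors, beside 67 and 15 with TMM. Where the test changed too, they were 3369 higher and 4 lower with limma on log2(TPM + 1), and 234 higher and 120 lower with the DESeq2 Wald test. Library totals raised the median of all genes by 0.10 and log2(TPM + 1) by 0.12, and the fold changes given here are relative to TMM.

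**Figure D2:**
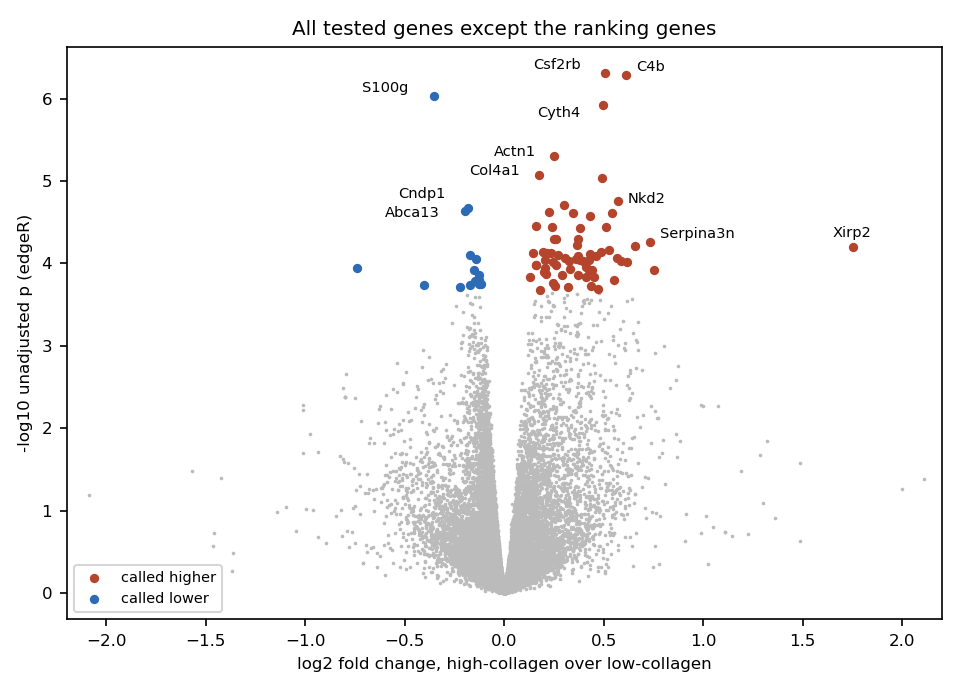
Each point is 1 of the tested genes except the ranking genes, with the log2 fold change of high-collagen over low-collagen kidneys on the horizontal axis and -log10 of the unadjusted edgeR p on the vertical axis; 2 genes fall outside the horizontal range. Red marks the 67 genes called higher and blue the 15 called lower, and the called genes lie mostly within 1 log2 unit of 0.

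Csf2rb (ENSMUSG00000071713, chromosome 15, 78325752 to 78353847, plus strand on GRCm38), the shared beta chain of the receptors for GM-CSF, interleukin 3 and interleukin 5 on myeloid cells, had the smallest p. It was at 4.40, 5.46 and 6.37 CPM in the high-collagen kidneys of batch 1, against 3.16, 3.58 and 4.41 CPM in the low-collagen kidneys. In batch 2 it was at 6.27, 6.82 and 7.50 CPM in high-collagen and 3.80, 4.96 and 6.24 CPM in low-collagen kidneys. The groups overlapped narrowly in batch 1 and did not overlap in batch 2 (log2 fold change 0.51 ± 0.08 SE, adjusted p = 0.00492, edgeR). C4b (ENSMUSG00000073418, chromosome 17, 34728380 to 34743882, minus strand), which encodes complement component C4, was at 33.9, 41.9 and 50.9 CPM in high-collagen and 25.7, 28.4 and 32.3 CPM in low-collagen kidneys of batch 1. Batch 2 gave 37.1, 47.4 and 55.6 CPM in high-collagen and 22.9, 28.4 and 42.03 CPM in low-collagen kidneys. Here the groups stood apart in batch 1 and overlapped in batch 2 (log2 fold change 0.61 ± 0.09 SE, adjusted p = 0.00492, edgeR). Both genes have a close copy in the mouse genome, Csf2rb2 and C4a, as do Lyz2 and Lilrb4a below, so the division of reads between copies is uncertain.

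Cyth4 (ENSMUSG00000018008, chromosome 15, 78597047 to 78622019, plus strand), a guanine nucleotide exchange factor for ARF proteins found mainly in blood cells, was at 8.72, 10.5 and 12.7 CPM in high-collagen and 6.60, 7.63 and 9.78 CPM in low-collagen kidneys of batch 1. In batch 2 its values were 11.3, 15.5 and 16.6 CPM in high-collagen and 8.84, 9.57 and 14.7 CPM in low-collagen kidneys (log2 fold change 0.49 ± 0.08 SE, adjusted p = 0.00568, edgeR). There HET replicate 11 was the lowest high-collagen and HET replicate 8 the highest low-collagen kidney. Actn1 (ENSMUSG00000015143, chromosome 12, 80167547 to 80260371, minus strand), an alpha-actinin that crosslinks actin filaments, was at 44.6, 47.5 and 51.1 CPM in high-collagen and 37.1, 40.3 and 45.8 CPM in low-collagen kidneys of batch 1. The batch 2 values were 54.9, 62.7 and 65.5 CPM in high-collagen and 43.5, 50.3 and 58.3 CPM in low-collagen kidneys. The Actn1 groups overlapped in both batches, with a smaller difference than the 3 genes before it (log2 fold change 0.25 ± 0.04 SE, adjusted p = 0.0187, edgeR). Of the 67 higher genes, 8 had groups that did not overlap in batch 1, 4 had such groups in batch 2, and none in both. Among all 19232 tested genes, 38 (0.198%) had non-overlapping higher groups in batch 1 and 50 (0.26%) in batch 2. Of the 15 lower genes, 2 had non-overlapping groups in batch 1, 1 in batch 2 and 0 in both. In that direction there were 31 (0.161%) among all tested genes in batch 1 and 30 (0.156%) in batch 2.

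In a list of 18 other collagens, not all of them fibrillar, 17 had a positive log2 fold change. The median was 0.19 beside -0.015 for all tested genes. Called higher were 4 members, likewise not all fibrillar, and none was called lower. Col5a1, a chain of collagen V that sets the width of collagen I fibrils, was one of them (log2 fold change 0.27 ± 0.06 SE, adjusted p = 0.0357, edgeR). Col18a1, whose C-terminal fragment is endostatin, was another (log2 fold change 0.16 ± 0.04 SE, adjusted p = 0.0367, edgeR). Col16a1 (log2 fold change 0.26 ± 0.05 SE, adjusted p = 0.0357) and Col8a2 (log2 fold change 0.45 ± 0.10 SE, adjusted p = 0.0394) completed them, by edgeR. Col5a1 was at 27.4, 35.2 and 38.9 CPM in high-collagen and 25.9, 28.02 and 33.5 CPM in low-collagen kidneys of batch 1. Batch 2 kidneys held 34.9, 38.6 and 40.5 CPM in high-collagen and 26.3, 30.6 and 37.2 CPM in low-collagen kidneys. Since fibrillar collagens chose the groups, this list is the nearest to the ranking. Without the doubted libraries Col5a1 and Col18a1 stayed called, and 0 to 6 members were called when single libraries were left out.

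Of 23 matrix glycoproteins, 3 were called higher and none lower, with a median of 0.21. Ltbp2, which sits on elastic microfibrils, averaged 23.5 ± 5.30 CPM in high-collagen and 16.3 ± 5.02 CPM in low-collagen kidneys (SD, n = 12 each, both batches; log2 fold change 0.54 ± 0.10 SE, adjusted p = 0.0302, edgeR). Sparc, a collagen-binding protein needed for fibril assembly, was at 143, 158 and 177 CPM in high-collagen and 129.6, 139 and 166 CPM in low-collagen kidneys of batch 1. Values in batch 2 were 208, 217 and 245 CPM in high-collagen and 168, 189.6 and 209 CPM in low-collagen kidneys (log2 fold change 0.19 ± 0.04 SE, adjusted p = 0.0357, edgeR). Eln encodes elastin and was at 15.4, 18.2 and 18.9 CPM in high-collagen and 13.02, 15.1 and 15.7 CPM in low-collagen kidneys of batch 1. Elastin levels in batch 2 were 21.7, 23.4 and 27.5 CPM in high-collagen and 15.4, 21.3 and 22.2 CPM in low-collagen kidneys (log2 fold change 0.24 ± 0.05 SE, adjusted p = 0.0357, edgeR). Without the doubted libraries Ltbp2 and Sparc stayed called and Eln did not. With the CPM ranking Sparc and Eln stayed called and Ltbp2 did not (adjusted p = 0.173, edgeR). None of 12 tested proteoglycan genes, a list that includes the hyaluronan receptor Cd44, passed. Their median was 0.088, Cd44 had a log2 fold change of 0.53 (adjusted p = 0.0546, edgeR), and the biglycan gene Bgn had a log2 fold change of 0.19 with an adjusted p of 0.0973 by edgeR.

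Enzymes that shape matrix contributed 1 call each from 2 lists. Mmp14 (ENSMUSG00000000957, chromosome 14, 54431612 to 54445364, plus strand), the membrane-anchored collagenase that also activates pro-MMP2, was at 15.9, 18.1 and 22.01 CPM in high-collagen and 12.6, 14.6 and 16.8 CPM in low-collagen kidneys of batch 1. In batch 2 it was at 22.7, 24.04 and 27.8 CPM in high-collagen and 15.1, 19.2 and 25.4 CPM in low-collagen kidneys (log2 fold change 0.35 ± 0.07 SE, adjusted p = 0.0302, edgeR). The other 15 tested matrix metalloproteinases and inhibitors were not called, with Timp1, an inhibitor of metalloproteinases, nearest at a log2 fold change of 0.48 (adjusted p = 0.0511, edgeR), and the list's median was 0.19. Adamts2, which removes the N-terminal propeptide of fibrillar procollagens, was the 1 of 18 processing and crosslinking genes called (log2 fold change 0.29 ± 0.07 SE, adjusted p = 0.0393, edgeR), and it was not called without the doubted libraries. With the CPM ranking Adamts2 stayed called (adjusted p = 0.00636, edgeR). Loxl2, a lysyl oxidase that crosslinks collagen, was at a log2 fold change of 0.19 (adjusted p = 0.0973, edgeR).

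No fibroblast and myofibroblast gene was called among 19 tested, although all 19 had a positive log2 fold change and their median was 0.16. The absence of calls depended on the ranking. With the CPM ranking 6 of the 19 were called higher, Cygb among them (adjusted p = 0.00813, edgeR), and the median was 0.27. Cygb, which marks kidney and liver interstitial cells, had a log2 fold change of 0.23 (adjusted p = 0.0540), Thy1 0.42 (0.134) and Pdgfra, the PDGF receptor of fibroblasts, 0.15 (adjusted p = 0.275), by edgeR. TGF-beta ligands, receptors and targets, 19 in number, had a median of 0.031 and no call. Tgfb1, the main fibrogenic ligand, was at 0.17 (adjusted p = 0.143) and Tgfb3 at 0.24 (adjusted p = 0.238), by edgeR. BMP ligands, receptors and antagonists, 21 in number, had a median of -0.05 and no call, and the sign of that median turned to 0.050 with library totals. Bmpr2, a BMP receptor, was at -0.10 and the activin antagonist Fst at 0.23, with adjusted p of 0.214 and 0.298 by edgeR. Nbl1 was at 3.95, 5.93 and 9.21 CPM in high-collagen and 3.61, 4.75 and 7.404 CPM in low-collagen kidneys of batch 1. For batch 2 the values were 4.55, 8.21 and 15.2 CPM in high-collagen and 4.23, 6.66 and 10.96 CPM in low-collagen kidneys. Its groups overlapped widely in both batches (log2 fold change 0.32 ± 0.16 SE, adjusted p = 0.414, edgeR, with genotype label in the model).

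Both chains of the ubiquitous collagen IV network, Col4a1 and Col4a2, were higher in high-collagen kidneys. They were the only calls in a list of 19 collagen IV and laminin genes of basement membranes, whose median was 0.053. Col4a1 (ENSMUSG00000031502, chromosome 8, 11198423 to 11312826, minus strand) was at 432, 438 and 488 CPM in high-collagen and 371, 404 and 425 CPM in low-collagen kidneys of batch 1, where the groups did not overlap. In batch 2 its values were 451, 498 and 516 CPM in high-collagen and 402, 426 and 478 CPM in low-collagen kidneys (log2 fold change 0.18 ± 0.03 SE, adjusted p = 0.0221, edgeR). Col4a2, its neighbour on chromosome 8, averaged 311 ± 20.97 CPM in high-collagen and 279 ± 18.4 CPM in low-collagen kidneys (SD, n = 12 each; log2 fold change 0.16 ± 0.03 SE, adjusted p = 0.0323, edgeR). Col4a5, the gene of the disease, was at 23.3, 25.6 and 26.8 CPM in high-collagen and 22.2, 25.5 and 27.2 CPM in low-collagen kidneys of batch 1. Batch 2 levels were 20.4, 22.2 and 26.7 CPM in high-collagen and 17.4, 22.2 and 27.3 CPM in low-collagen kidneys. Its groups overlapped nearly completely (log2 fold change 0.039 ± 0.05 SE, adjusted p = 0.811, edgeR). Both Col4a1 and Col4a2 stayed called without the doubted libraries.

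Macrophage and monocyte genes held the most calls of any list: 7 of 22 were higher, none lower, 21 had a positive log2 fold change, and the median was 0.39. The 7 were C1qc, Fcgr1, Mrc1, Csf1r, Cd14, Fcgr3 and Lyz2. C1qc (ENSMUSG00000036896, chromosome 4, 136889804 to 136893065, minus strand), a chain of the complement starter C1q that tissue macrophages make, was at 11.9, 12.6 and 14.8 CPM in high-collagen and 8.22, 9.77 and 12.5 CPM in low-collagen kidneys of batch 1. In batch 2 it was at 15.4, 19.9 and 20.98 CPM in high-collagen and 11.1, 12.8 and 19.7 CPM in low-collagen kidneys. One low-collagen kidney of batch 2 lay among the high-collagen values (log2 fold change 0.43 ± 0.08 SE, adjusted p = 0.0302, edgeR). Fcgr1, the high-affinity receptor for IgG, was at 1.39, 2.08 and 2.201 CPM in high-collagen and 1.07, 1.38 and 1.67 CPM in low-collagen kidneys of batch 1. Batch 2 gave 2.94, 3.37 and 3.80 CPM in high-collagen and 1.78, 2.04 and 3.71 CPM in low-collagen kidneys (log2 fold change 0.53 ± 0.11 SE, adjusted p = 0.0357, edgeR). Without the doubted libraries C1qc, Mrc1 and Fcgr3 stayed called, and 0 to 16 members were called when single libraries were left out. With the CPM ranking 6 members were called, and Fcgr3 was not among them (adjusted p = 0.0995, edgeR).

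Mrc1, the mannose receptor of resident macrophages, averaged 15.3 ± 2.90 CPM in high-collagen and 11.6 ± 2.27 CPM in low-collagen kidneys (SD, n = 12 each; log2 fold change 0.39 ± 0.09 SE, adjusted p = 0.0357, edgeR). Csf1r, the receptor on which macrophages depend for survival, had a log2 fold change of 0.16 (adjusted p = 0.0367, edgeR). That of Cd14, a co-receptor for bacterial lipopolysaccharide, was 0.43 (adjusted p = 0.0357, edgeR). Fcgr3, a lower-affinity IgG receptor, stood at 0.41 (adjusted p = 0.0369, edgeR) and Lyz2, lysozyme, at 0.55 (adjusted p = 0.0420, edgeR). The summed level of the 22 genes was 376, 415 and 512 CPM in high-collagen and 345, 354 and 424 CPM in low-collagen kidneys of batch 1. The batch 2 values were 562, 621 and 707 CPM in high-collagen and 417, 441 and 664 CPM in low-collagen kidneys. The sums overlapped in both batches, and no gene of the list was at 0 in all libraries.

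Since 7 macrophage genes were called, promoters were searched for GAGGAA, the core word bound by the myeloid ETS factor PU.1. Fcgr1 and Mrc1 are shown as called macrophage genes that hold it within 120 bases before the RefSeq start (GRCm38.p6), and S100g, the lower gene of smallest p, as one that does not. Capitals mark the word, which lies on the opposite strand in both cases, and each sequence runs 5′ to 3′ on the gene's own strand.
Fcgr1 (chr3:96293970-96294089, minus strand): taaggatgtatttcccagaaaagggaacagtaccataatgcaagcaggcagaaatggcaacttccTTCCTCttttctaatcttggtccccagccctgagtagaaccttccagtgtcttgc
Mrc1 (chr2:14229294-14229413, plus strand): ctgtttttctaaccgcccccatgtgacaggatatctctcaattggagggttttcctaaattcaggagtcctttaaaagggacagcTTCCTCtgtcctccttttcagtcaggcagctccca
S100g (chrX:162964600-162964719, minus strand): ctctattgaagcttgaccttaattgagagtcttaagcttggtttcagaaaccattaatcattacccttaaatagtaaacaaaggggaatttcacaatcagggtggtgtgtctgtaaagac
Searched on both strands over 250 bases, GAGGAA was in 11 of the 51 called higher genes with a promoter sequence (21.6%), in 1 of the 9 called lower genes with one (11.1%) and in 22.6% of the 12660 tested genes with one. The AP-1 word TGANTCA, which does not overlap GAGGAA, was in 3 of 51 (5.88%), 1 of 9 (11.1%) and 4.80% of all. The share among the higher genes was close to that of all genes for both words, and a match is a description of letters, not of a bound site. In Mrc1 the last 22 bases shown lie inside the gene as GENCODE M21 draws it.

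Antigen presentation and dendritic cell genes gave 2 calls of 16 and a median of 0.28. Itgax, the CD11c integrin chain, averaged 7.43 ± 1.98 CPM in high-collagen and 5.55 ± 1.49 CPM in low-collagen kidneys (SD, n = 12 each; log2 fold change 0.43 ± 0.09 SE, adjusted p = 0.0357, edgeR). H2-Eb1, a beta chain of the MHC class II molecule, averaged 99.1 ± 27.98 CPM in high-collagen and 78.6 ± 20.6 CPM in low-collagen kidneys (log2 fold change 0.32 ± 0.07 SE, adjusted p = 0.0448, edgeR). Neither stayed called without the doubted libraries. C4b was the 1 of 17 complement genes called, and the list's median was 0.22; C3, the central component, had a log2 fold change of 0.64 (adjusted p = 0.0537, edgeR). Csf1, the ligand of Csf1r, was the 1 call among 22 chemokines and cytokines (log2 fold change 0.24 ± 0.05 SE, adjusted p = 0.0323, edgeR), and Ccl2, which draws monocytes, was at 0.55 (adjusted p = 0.0871, edgeR). Interferon response genes, 22 in number, had a median of 0.16 and no call, with Mx1 at 0.57 and Irf9 at 0.17 (adjusted p = 0.0901 and 0.0871, edgeR).

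**Figure D3:**
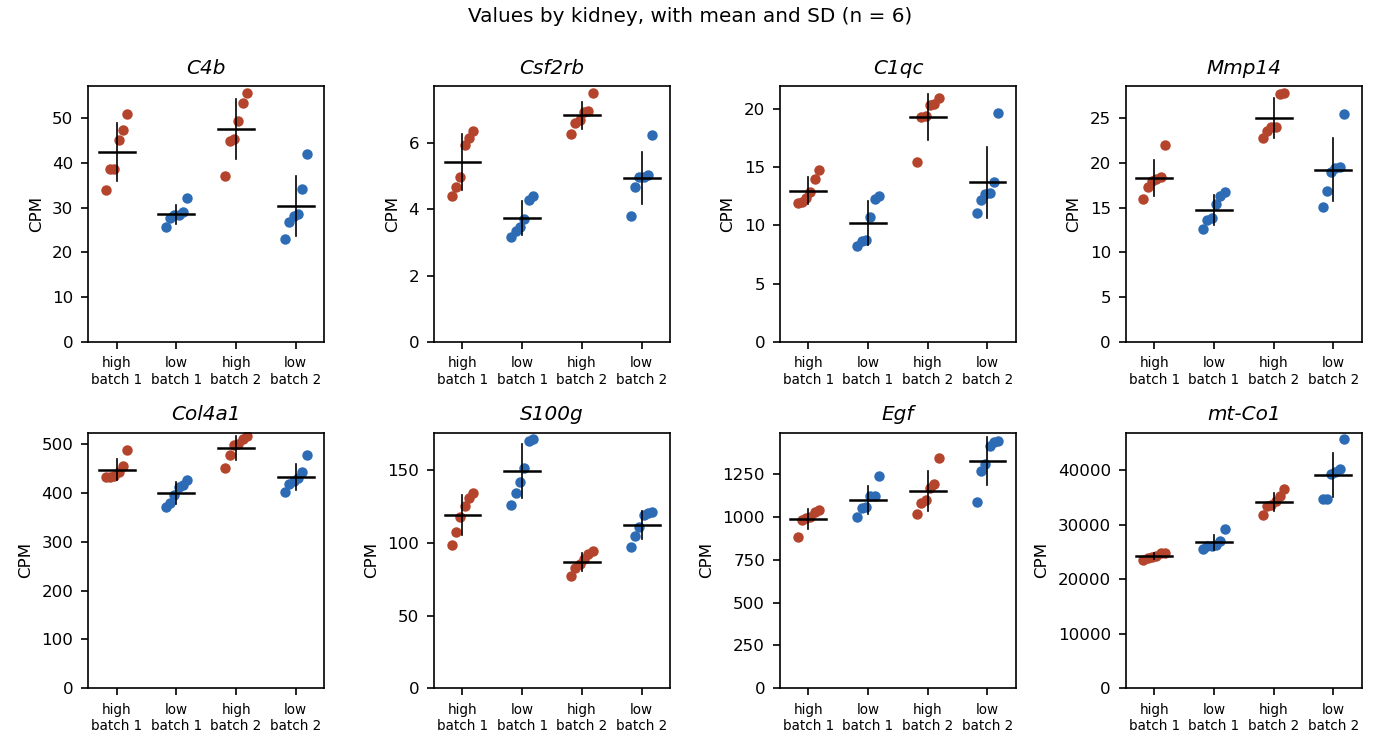
TMM-scaled CPM of 8 genes in each kidney, by batch, with high-collagen kidneys in red to the left of low-collagen kidneys in blue; the bar is the mean and the line the SD of 6 kidneys. C4b, Csf2rb, C1qc, Mmp14 and Col4a1 lie higher in high-collagen kidneys, S100g and mt-Co1 lie lower, and Egf, which did not pass (adjusted p = 0.0521, edgeR), is shown beside them; for C1qc and Mmp14 one low-collagen kidney of batch 2 stands with the high-collagen kidneys.

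Lymphocyte lists gave no call and differed between batches. T and NK cell genes had a median log2 fold change of -0.15 in batch 1 and 0.56 in batch 2, and B and plasma cell genes -0.29 and 0.69. Summed, the 15 B and plasma cell genes were at 110.2, 129 and 150.2 CPM in high-collagen and 105, 123 and 288 CPM in low-collagen kidneys of batch 1. Batch 2 kidneys held 134, 185 and 346 CPM in high-collagen and 118, 126 and 193 CPM in low-collagen kidneys. The highest low-collagen kidney of batch 1, the doubted WT replicate 1, and the highest high-collagen kidney of batch 2, HET replicate 13, stood well above their group medians. The CPM ranking places WT replicate 1 in the upper group. Over both batches the median of the B and plasma cell list was 0.28. It was 0.47 without the doubted libraries and 0.54 with the CPM ranking. For T and NK cell genes these 3 medians were 0.17, 0.19 and 0.20. Trbc1, a T cell receptor chain, was at 0.403 ± 0.142 CPM in high-collagen and 0.239 ± 0.124 CPM in low-collagen kidneys (SD, n = 12 each; log2 fold change 0.76 ± 0.26 SE, adjusted p = 0.176, edgeR). The difference between batches was not tested for these lists as sets. Gene by gene, none passed in the interaction of collagen group with batch (smallest adjusted p = 0.143, edgeR's quasi-likelihood test).

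Sox9, a transcription factor that tubule cells switch on during repair, was the 1 call among 24 tubular injury genes. It averaged 4.28 ± 1.37 CPM in high-collagen and 2.84 ± 0.443 CPM in low-collagen kidneys (SD, n = 12 each; log2 fold change 0.59 ± 0.13 SE, adjusted p = 0.0357, edgeR). Spp1, osteopontin, averaged 1298 ± 267 CPM in high-collagen and 966 ± 244 CPM in low-collagen kidneys and did not pass (log2 fold change 0.44 ± 0.10 SE, adjusted p = 0.0537, edgeR), and Vcam1, an adhesion molecule of failed-repair tubule cells, had a log2 fold change of 0.42 (adjusted p = 0.105, edgeR). The list's median was 0.15, with 21 of 24 positive. Its summed level was 2269, 2673 and 2961 CPM in high-collagen and 2012, 2109.6 and 2365 CPM in low-collagen kidneys of batch 1. Values in batch 2 were 2627, 2911 and 3569 CPM in high-collagen and 2231, 2476 and 3136 CPM in low-collagen kidneys. Cell cycle genes had 21 of 22 positive values, a median of 0.18 and no call, with Top2a, the replication topoisomerase, at 0.31 (adjusted p = 0.123, edgeR). Uhrf1, which maintains DNA methylation in dividing cells and was outside the lists, passed (log2 fold change 0.46 ± 0.10 SE, adjusted p = 0.0357, edgeR). Sox9, Mmp14, Csf1 and C4b stayed called without the doubted libraries, and Uhrf1 did not. With the CPM ranking Mmp14, C4b and Uhrf1 stayed called. Sox9 (adjusted p = 0.203) and Csf1 (adjusted p = 0.0568) did not, by edgeR.

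Tubule and metabolic lists leaned lower by less than 0.1 log2 units and held no call outside the mitochondrial genome. None of 28 proximal tubule genes passed, 4 were positive, and the median was -0.065. For gluconeogenesis and amino acid metabolism 0 of 19 were positive (median -0.09), for fatty acid oxidation 0 of 22 (-0.067) and for nuclear-encoded respiratory chain genes 0 of 21 (-0.076). With library totals these 4 medians were 0.038, 0.013, 0.035 and 0.027, and with log2(TPM + 1) 0.083, 0.053, 0.083 and 0.083, so their sign depends on the scaling; less the shift of all genes they were again below 0. Over all tested genes 43.1% were positive. Miox, which breaks down inositol in the proximal tubule, had a log2 fold change of -0.17 (adjusted p = 0.0540, edgeR). Egf, made by the distal tubule, averaged 1069.8 ± 121 CPM in high-collagen and 1212 ± 161 CPM in low-collagen kidneys (SD, n = 12 each; log2 fold change -0.19 ± 0.04 SE, adjusted p = 0.0521, edgeR), while Umod was at 0.0092 (adjusted p = 0.946, edgeR). The loop of Henle and distal tubule list had a median of -0.072 and the collecting duct list -0.067, both above 0 with library totals (0.030 and 0.034).

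Mitochondrially encoded RNAs were the exception in the sign of their median, with 2 of 13 called lower and a median of -0.25. It stayed below 0 with all 4 other scalings (-0.14 with library totals, -0.067 with log2(TPM + 1) and with log2(TPM + 0.1), -0.25 with RLE factors). The calls did not hold: RLE factors kept 2, while library totals, both TPM scales and the CPM ranking gave 0. Within batch and collagen group, the list's median log2 CPM varied between kidneys with an SD of 0.468. mt-Co1, a subunit of cytochrome c oxidase, averaged 29205 ± 5299.9 CPM in high-collagen and 32943 ± 7079 CPM in low-collagen kidneys (SD, n = 12 each; log2 fold change -0.17 ± 0.04 SE, adjusted p = 0.0448, edgeR). mt-Nd5, a subunit of complex I, averaged 9285 ± 1076 CPM in high-collagen and 10865 ± 2171 CPM in low-collagen kidneys (log2 fold change -0.22 ± 0.05 SE, adjusted p = 0.0451, edgeR). Neither was called without the doubted libraries, and 0 to 6 members were called when single libraries were left out. These RNAs are also what the library measure of mitochondrial share counts, which was lower by 0.772 percentage points as given above.

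S100g (ENSMUSG00000040808, chromosome X, 162961992 to 162964599, minus strand), the calcium-binding calbindin-D9k of the distal tubule, was the lower gene of smallest p. It was at 98.8, 122 and 134 CPM in high-collagen and 127, 147 and 171 CPM in low-collagen kidneys of batch 1. For batch 2 the values were 77.05, 87.2 and 94.6 CPM in high-collagen and 97.3, 115 and 122 CPM in low-collagen kidneys, with no overlap in batch 2 (log2 fold change -0.35 ± 0.06 SE, adjusted p = 0.00568, edgeR). Abca13 (ENSMUSG00000004668, chromosome 11, 9191942 to 9684259, plus strand), a lipid transporter, was at 502, 591 and 604 CPM in high-collagen and 599, 625 and 681 CPM in low-collagen kidneys of batch 1. Batch 2 levels were 351, 386 and 425 CPM in high-collagen and 392, 449 and 524 CPM in low-collagen kidneys (log2 fold change -0.20 ± 0.04 SE, adjusted p = 0.0302, edgeR). Cndp1, which splits carnosine, was at 69.3, 74.5 and 78.99 CPM in high-collagen and 78.7, 84.4 and 90.9 CPM in low-collagen kidneys of batch 1. In batch 2 it was at 71.1, 78.1 and 85.3 CPM in high-collagen and 78.6, 87.01 and 98.2 CPM in low-collagen kidneys (log2 fold change -0.18 ± 0.04 SE, adjusted p = 0.0302, edgeR). Of the lower genes, S100g alone was called in all 24 leave-one-out fits, but it was not called with the CPM ranking (adjusted p = 0.109, edgeR).

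Of the other lower genes, Tmem52b, a membrane protein, was at 138, 149 and 161 CPM in high-collagen and 152, 163 and 177 CPM in low-collagen kidneys of batch 1. Batch 2 gave 155, 164 and 182 CPM in high-collagen and 174, 186 and 221 CPM in low-collagen kidneys (log2 fold change -0.17 ± 0.04 SE, adjusted p = 0.0357, edgeR). Arhgap18, a GTPase-activating protein, was at 67.1, 69.3 and 72.3 CPM in high-collagen and 74.6, 76.6 and 78.4 CPM in low-collagen kidneys in batch 1, without overlap. The batch 2 values were 67.7, 71.5 and 72.7 CPM in high-collagen and 70.9, 76.4 and 88.8 CPM in low-collagen kidneys (log2 fold change -0.14 ± 0.03 SE, adjusted p = 0.0357, edgeR). Fahd1, a mitochondrial oxaloacetate decarboxylase, held 54.1, 55.9 and 62.6 CPM in high-collagen and 57.6, 64.4 and 68.1 CPM in low-collagen kidneys of batch 1. Batch 2 kidneys held 54.5, 64.5 and 67.5 CPM in high-collagen and 65.8, 69.1 and 72.6 CPM in low-collagen kidneys (adjusted p = 0.0369, edgeR). The groups of those 3 genes overlapped except where stated.

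Among the last of the lower genes, Aifm1, a flavoprotein needed for respiratory chain assembly, had a log2 fold change of -0.13, Mmut, methylmalonyl-CoA mutase, -0.12, and Iyd, which recycles iodide from iodotyrosines, -0.15. Tanc2 was at -0.13 and Sephs2, a selenophosphate synthetase, at -0.13. Their adjusted p were 0.0422, 0.0443, 0.0424, 0.0393 and 0.0443 in the same order, by edgeR. Tanc2 was at 146, 150.2 and 159 CPM in high-collagen and 158, 162 and 168 CPM in low-collagen kidneys of batch 1. Values in batch 2 were 118, 125 and 140.0 CPM in high-collagen and 132, 135 and 154 CPM in low-collagen kidneys. Aifm1 was at 90.3, 94.2 and 98.4 CPM in high-collagen and 97.4, 103 and 108 CPM in low-collagen kidneys of batch 1. For batch 2 the values were 118, 122 and 125 CPM in high-collagen and 120.2, 134 and 147 CPM in low-collagen kidneys. Mmut was at 205, 211 and 222 CPM in high-collagen and 219, 230.1 and 239 CPM in low-collagen kidneys of batch 1. Batch 2 levels were 241, 249.6 and 261 CPM in high-collagen and 247, 268 and 289 CPM in low-collagen kidneys. Iyd was at 37.9, 39.5 and 41.4 CPM in high-collagen and 39.7, 44.7 and 46.7 CPM in low-collagen kidneys of batch 1. Its batch 2 values were 46.1, 47.9 and 52.8 CPM in high-collagen and 47.8, 53.7 and 56.6 CPM in low-collagen kidneys. In all 4 of these the groups overlapped in both batches. The 2 lower genes that are not protein coding, Gm48998 and Gm37404, are annotated only as models still to be checked by experiment, with log2 fold changes of -0.74 and -0.40.

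Further higher genes with values by kidney included C1qtnf6, a C1q and TNF related secreted protein, at 2.98, 3.74 and 4.79 CPM in high-collagen and 2.10, 2.68 and 3.02 CPM in low-collagen kidneys of batch 1. Batch 2 gave 4.02, 4.27 and 4.92 CPM in high-collagen and 2.49, 3.21 and 4.44 CPM in low-collagen kidneys (log2 fold change 0.49 ± 0.09 SE, adjusted p = 0.0221, edgeR). Nkd2, an antagonist of Wnt signalling, was at 2.08, 3.14 and 3.58 CPM in high-collagen and 1.21, 1.91 and 2.26 CPM in low-collagen kidneys of batch 1. The batch 2 values were 3.16, 4.06 and 5.64 CPM in high-collagen and 2.52, 3.06 and 4.36 CPM in low-collagen kidneys (log2 fold change 0.57 ± 0.11 SE, adjusted p = 0.0302, edgeR). Both overlapped between the groups in each batch. Dock10, a guanine nucleotide exchange factor of immune cells, was at 22.3, 26.4 and 29.2 CPM in high-collagen and 18.5, 20.95 and 23.5 CPM in low-collagen kidneys of batch 1. Batch 2 kidneys held 20.5, 26.2 and 28.5 CPM in high-collagen and 18.7, 20.3 and 25.6 CPM in low-collagen kidneys (log2 fold change 0.30 ± 0.06 SE, adjusted p = 0.0302, edgeR), and HET replicate 8 was the highest of its low-collagen values in batch 2. Nfkb2, a subunit of the noncanonical NF-kappaB factor, was at 18.3, 18.7 and 21.1 CPM in high-collagen and 14.04, 16.3 and 18.1 CPM in low-collagen kidneys in batch 1, where the groups did not overlap. Values in batch 2 were 20.6, 22.02 and 25.6 CPM in high-collagen and 17.98, 19.1 and 21.8 CPM in low-collagen kidneys (log2 fold change 0.23 ± 0.05 SE, adjusted p = 0.0302, edgeR).

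Other called genes outside the lists, given by log2 fold change and all higher, included Siglec1 at 0.61 and Stab1 at 0.21, receptors found on macrophages. Mgl2, a C-type lectin, was at 0.38, Itgb2, the beta chain of leukocyte integrins, at 0.41, Ncf1, a subunit of the phagocyte NADPH oxidase, at 0.42, Spib, an ETS factor, at 0.75, and Lilrb4a, an inhibitory receptor, at 0.37. P2ry6, Cd72, Nfam1, Fes, Wdfy4, Unc93b1, Adcy7, Naaa, Otulinl and Icam1 ran from 0.23 for Icam1, an adhesion molecule, to 0.48 for P2ry6, a receptor for UDP. Serpina3n at 0.73, Serpina10 at 0.57 and Aoc1, a diamine oxidase, at 0.66 were among the larger differences. Flna at 0.21, Myh9 at 0.13, Sh3pxd2b at 0.25, Slit3 at 0.26 and Adamts10 at 0.24 were smaller. Agap2 at 0.51, Kif1a at 0.47, Ankrd6 at 0.38, Clcf1, a cytokine, at 0.37, Cdr2l at 0.33, Efhd2 at 0.21, Sbno2 at 0.20, Vat1 at 0.18 and Litaf at 0.15 complete the higher genes. Pdgfb, a growth factor for mesangial cells and pericytes, was the 1 call among 16 mesangial, smooth muscle and renin cell genes (log2 fold change 0.20 ± 0.04 SE, adjusted p = 0.0357, edgeR), and it was not called without the doubted libraries. Xirp2 had the highest fold but a level of 0.372 ± 0.202 CPM in high-collagen and 0.106 ± 0.0759 CPM in low-collagen kidneys (SD, n = 12 each), and on log2(TPM + 1), less the shift of all genes, its log2 fold change was -0.053.

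Markers of other cell types in the dissected kidney gave no call. Podocyte genes, 17 in number, had a median of -0.06 (0.043 with library totals), endothelial and lymphatic genes, 21, a median of 0.027, and parietal epithelial genes, 8, 0.041. Adipose genes varied widely: their sum was 43.04, 54.2 and 249 CPM in high-collagen and 41.05, 136 and 254 CPM in low-collagen kidneys of batch 1. For batch 2 the values were 102, 243 and 325 CPM in high-collagen and 70.97, 151 and 319 CPM in low-collagen kidneys, with median log2 fold changes of -1.23 in batch 1 and 0.50 in batch 2. Erythrocyte genes had a median of -0.50, 0 of 8 positive, with sums of 223, 268 and 300.4 CPM in high-collagen and 297, 346 and 571 CPM in low-collagen kidneys of batch 1. Batch 2 levels were 335, 416 and 800.2 CPM in high-collagen and 399, 515 and 1054 CPM in low-collagen kidneys. Cyp11b1, which marks the adrenal cortex, had 0 or 1 counts in every library, and Prss2, Cela2a and Cpa1 of the pancreas were at 0 in all. How blood, fat and gland RNA bear on the calls was not tested.

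**Figure D4:**
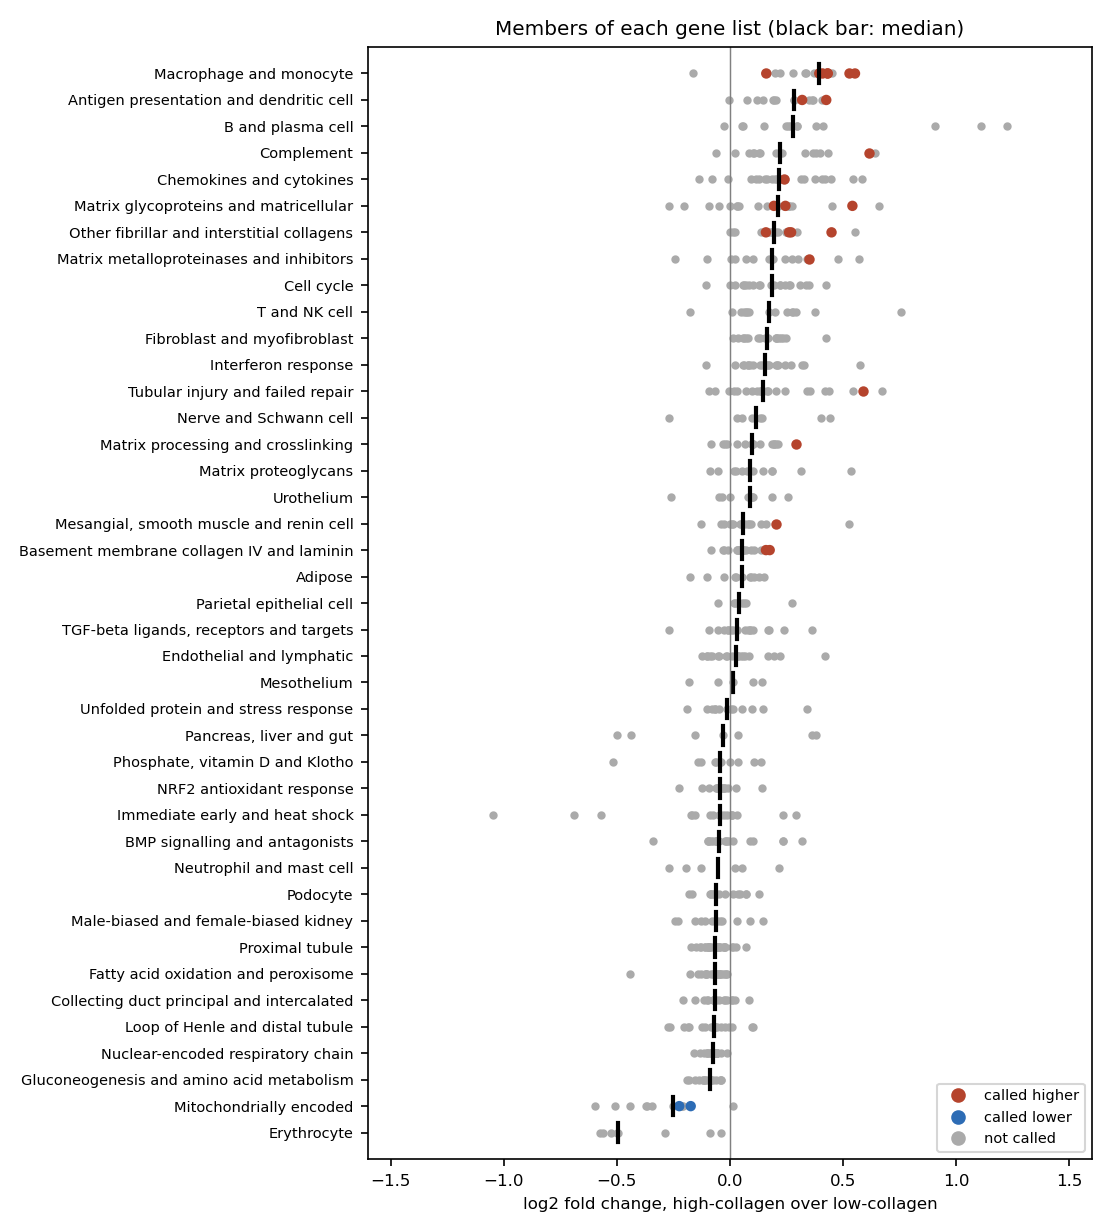
Each row is a gene list with at least 5 tested members, each point 1 member, and the horizontal axis the log2 fold change of high-collagen over low-collagen kidneys; red and blue mark called higher and lower genes and the black bar the median. The macrophage list has the highest median (0.39) and the erythrocyte list the lowest (-0.50); medians of the proximal tubule, gluconeogenesis, fatty acid oxidation and nuclear-encoded respiratory chain lists lie just below 0 here and above 0 with library totals or log2(TPM + 1). That of the mitochondrially encoded list is further below 0 and stays negative with both.

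Each batch was also tested alone, with different mice in each. By edgeR's quasi-likelihood test no gene passed in batch 1 (smallest adjusted p = 0.487), in batch 2 (smallest adjusted p = 0.272) or in the interaction (smallest adjusted p = 0.143). The DESeq2 Wald test gave 16, 113 and 3. An unadjusted p under 0.05 was reached by 1146 of 19385 genes in batch 1 (5.91%), with 3.21% higher and 2.7% lower. In batch 2 it was reached by 1625 of 18217 (8.92%), with 5.24% higher and 3.68% lower, and in the interaction by 818 genes. Of 581 genes higher in batch 1 at an unadjusted p under 0.05, 165 were also so in batch 2, which is 28.4% of the batch 1 genes, beside 5.21% of all 17910 genes tested in both batches. The shared genes are 17.7% of the 933 of batch 2, beside 3.24% of all genes that were so in batch 1. Of 500 lower genes 47 were shared, which is 9.40% of batch 1, beside 3.71% of all, and 7.08% of the 664 of batch 2, beside 2.79% of all. The same sign in batch 2 was found for 74.2% of the higher genes, beside 45.9% of all genes that were positive there, and for 74.2% of the lower genes, beside 54.1% that were negative. The unadjusted threshold was chosen after no gene passed the adjusted one.

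**Figure D5:**
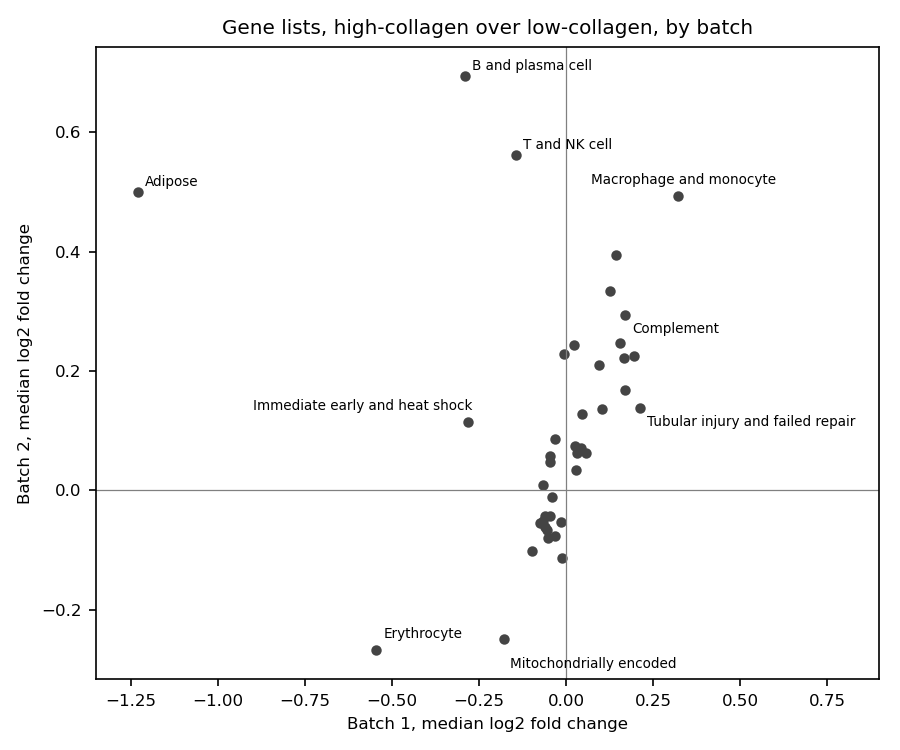
Median log2 fold change of each gene list in batch 1 (horizontal) against batch 2 (vertical), high-collagen over low-collagen kidneys, 1 point per list with at least 5 tested members. Macrophage genes are positive in both batches (0.32 and 0.49), B and plasma cell and T and NK cell genes are negative in batch 1 and positive in batch 2, and adipose genes are at -1.23 and 0.50.

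The division into upper and lower groups was compared with the index itself. Fitted as a slope on the index, 857 of 19715 genes were called (4.35%), 617 of them higher with the index (3.13%) and 240 lower (1.22%), and 81 of the 82 genes above were among them. By that fit, 17 of 22 macrophage genes, 9 of 16 antigen presentation genes, 9 of 17 complement genes, 10 of 18 other collagens, 12 of 23 matrix glycoproteins, 7 of 19 fibroblast genes and 8 of 24 tubular injury genes were called higher. Lower with the index were 6 of 13 mitochondrially encoded genes, 4 of 21 loop and distal tubule genes, 3 of 28 proximal tubule genes and 3 of 19 gluconeogenesis genes. Setting the upper 4 against the lower 4 of each batch gave 813 calls, 662 higher and 151 lower, 80 of them among the 82.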

How the data were processed

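Kidney RNA of 24 male XLAS mice was sequenced from poly(A) mRNA libraries, per the labels' protocols. The authors deposited 1 table of 55487 genes with expected counts, TPM and FPKM per library. GRCm38 (mm10), fastp, STAR and featureCounts are named in the submitters' processing notes, with version and strand setting not given in the sources used here. In each library 11.8% to 15.4% of genes had deposited expected counts that were not whole, and all were rounded. TPM was used as the authors deposited it for the ranking, with a pseudocount of 1, and in alternatives; deposited FPKM served only as a ratio to TPM. Coordinates come from GENCODE M21 (GRCm38), which holds 55227 of the identifiers, and promoter sequences from RefSeq (GRCm38.p6), which gave 60 of the 82 called genes.

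Genes were kept with filterByExpr (minimum count 10), scaled by TMM and tested with edgeR 4.0.16 in R 4.3.3 (robust quasi-likelihood), with batch and genotype label as covariates and Benjamini-Hochberg adjustment at 0.05. Alternatives used DESeq2 1.42.0 and limma 3.58.1. The 3 ranking genes stayed in the fit and were left out of every count of tested or called genes. Standard errors come from the F statistic. Library measures were compared with 100000 permutations within batch. No library was merged: within genotype and batch, all 61 pairs differed beyond counting noise, with 9.48 the smallest chi-square divided by its degrees of freedom. Labels give each library as its own mouse. Replicate numbers follow accession order, which names libraries and pairs nothing.

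The groups, the 43 gene lists and the tests were chosen with earlier results of these data known. Named genes are the ranking genes, Nbl1, Col4a5, the 15 of smallest p in each direction with at least 1 CPM, and list members by smallest p. The text takes the first members by p of each list and all 82 called genes, a choice made after the values were seen, as were Kap, Umod and Pdgfra. Values by kidney are given for 20 genes and a few list members. On simulated counts with 200 changed genes (19019 tested), 94% of genes changed 1.5-fold were recovered over all mice. Of genes changed 1.25-fold 60% were recovered, and of genes changed 1.15-fold 46%. In that simulation 4 of 154 calls were false. Its genes were drawn independently of each other, and its counts played no part in choosing the groups. The shares of recovered genes and of false calls, over all mice or within a batch, therefore need not hold for these libraries.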

Additional observations from a re-analysis of the deposited data

Results flagged for a closer look

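Of 96 groups of 6 libraries checked (20 genes and 4 library measures in each batch and collagen group), 4 held a library far from the others; chance alone gives about 1 in 20. Abca13 in the high-collagen kidneys of batch 1 was 502 CPM in WT replicate 4, below the 572 to 604 CPM of the other 5. Cyth4 in the high-collagen kidneys of batch 2 was 11.3 CPM in HET replicate 11, below the 14.9 to 16.6 CPM of the others. In the low-collagen kidneys of batch 2, HET replicate 8 held 14.7 CPM of Cyth4, above 8.84 to 10.1 CPM, and 25.6 CPM of Dock10, above 18.7 to 21.1 CPM. HET replicate 8 is also the kidney just below the division of batch 2, with an index of 5.736.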

How the results depend on the processing

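The count of 82 called genes kept its range with RLE scaling (84), no filter on low counts (82), batch as the only covariate (91) and the CPM ranking (120). It was 354 with the DESeq2 Wald test, 3373 and 3224 with limma on log2(TPM + 1) and log2(TPM + 0.1), 2158 with library totals, 11 with batch crossed with genotype, 813 with the upper 4 against the lower 4, 857 with the slope on the index and 38 without the 3 doubted libraries. Leaving out 1 library gave 5 to 499. Library totals and TPM moved the median of all genes by 0.10 to 0.15, in the direction of more higher calls. Within batch 1 the count of 0 became 16 with DESeq2 and 1 with the CPM ranking, and 0 to 1 when 1 library was left out. Within batch 2 it became 113 with DESeq2 and 1 with no filter, and 0 to 293 when 1 library was left out, 293 without HET replicate 8. The interaction gave 3 with DESeq2 and 0 to 1 when 1 library was left out. The cause of these differences was not tested.

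With the upper 4 against the lower 4, the median log2 fold change was 0.34 for other collagens, 0.13 for TGF-beta genes and -0.66 for erythrocyte genes, which were at -0.36 with the slope scaled to the mean difference of the index and at -0.59 to -0.36 when 1 library was left out. Among 142 named genes, the sign turned for Ms4a1 (-0.0087) and Xirp2 (-0.053) on log2(TPM + 1), less the shift of all genes, and for Umod when 1 library was left out (-0.015 to 0.035). Of the 82 called genes, 33 kept their call without the doubted libraries, 35 with the CPM ranking and 11 with batch crossed with genotype. No paired analysis was possible because the labels give no replicate numbers that tie HET and WT mice, and the collagen groups are not paired. Within a batch, the simulated data recovered 64% of genes changed 1.5-fold in batch 1 and 74% in batch 2, so smaller differences within a batch can be missed. Counts measure only these libraries, and the ranking and the tested genes come from the same RNA.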

Other observations

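Further values of stress and blood genes come from the same comparison of high-collagen with low-collagen kidneys. Immediate early and heat shock genes, 18 tested, had a median log2 fold change of -0.28 in batch 1 and 0.11 in batch 2 and no call. Their summed level was 1405 to 2873 CPM in high-collagen and 1175 to 2426 CPM in low-collagen kidneys of batch 1, a spread within each group wider than the difference between them. Alas2, the erythroid heme synthesis enzyme, averaged 4.44 ± 2.38 CPM in high-collagen and 6.31 ± 3.65 CPM in low-collagen kidneys (SD, n = 12 each), and Hba-a2, an alpha globin gene, had a log2 fold change of -0.57 (adjusted p = 0.232, edgeR's quasi-likelihood test).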
